A study of Mus musculus with 9 samples.

Results

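The genes described here are the MHC class II genes and Ciita, the gene of the class II transactivator. They were taken by gene symbol from the deposited gene tables, which gave 8 genes of 55274 gene identifiers: H2-Aa, H2-Ab1, H2-Eb1, H2-DMa, H2-DMb1, H2-DMb2, Cd74 and Ciita. RNA was sequenced from 9 libraries of mouse bone marrow cells, 3 in each of 3 groups: NRASG12D, NUP98-NSD1 and NUP98-NSD1+NRASG12D. The marrow came from female C57BL/6J mice aged 6 to 8 weeks that had received 5-fluorouracil at 150 mg/kg, and it was harvested 4 days later. All groups shared that treatment, a 48 h stimulation with human interleukin-6, murine interleukin-3 and murine stem cell factor, and retroviral transduction. The fusion NUP98-NSD1, an oncogene of acute myeloid leukaemia, was carried by MSCV-IRES-GFP, and NRASG12D, a constitutively active RAS, by MSCV-IRES-BFP. Transduced cells were sorted by GFP, BFP or both and expanded before RNA was isolated. No group with an empty vector or without virus was among the libraries, so every difference below lies between transduced cultures. The sources do not say whether libraries of a group came from separate mice or cultures, so p-values measure the spread between these samples, which may be technical.

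MHC class II molecules are heterodimers of an alpha and a beta chain that carry peptides from endocytosed proteins to the cell surface and show them to CD4 T cells. Professional antigen-presenting cells (dendritic cells, B cells and macrophages) make them constitutively or on induction, and mast cells can acquire them. The invariant chain Cd74 holds the new dimer until it reaches the endosome, where H2-DM exchanges the last fragment of Cd74 for a peptide. Transcription of these genes depends on CIITA, a coactivator that does not bind DNA itself but docks on a complex of RFX, CREB and NF-Y proteins at the X and Y boxes of the promoters.

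The files held FPKM, fragment counts divided by transcript length and by the number of mapped fragments, a level that can be compared between genes. The depth worked out from the steps between low values was 22500000 to 35400000 fragments a library. Nras itself checks which libraries carry NRASG12D, and not which carry the fusion. It was 354, 479 and 348 FPKM in NRASG12D libraries, 50.3, 47.7 and 51.2 in NUP98-NSD1 libraries and 244.7, 262.2 and 701 in those with both. Genes that reached 1 FPKM in 3 or more libraries were tested, 13493 in all, and the 8 genes of interest were among them. Differences are on the log2(FPKM + 1) scale, from limma, with p-values adjusted (Benjamini-Hochberg) across the whole set, and this scale understates the change of genes at low FPKM. Exact permutation tests over 3 against 3 libraries cannot go below p = 0.1, so they are not used for calls. A pair of libraries stood apart for the genes of interest: NRASG12D replicate 2, where several were higher than in the other NRASG12D libraries, and NUP98-NSD1+NRASG12D replicate 3, where several were lower than in the other double-transduced libraries. Each comparison is given with and without them. They were picked on the values tested, so fits without them give no added support.

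The promoters of 5 of the 8 genes are in the RefSeq promoter table used here (GRCm38.p6, 300 bases a promoter, 250 of them before the start), which lists 2 promoters for H2-DMa. H2-Ab1, Cd74 and Ciita have no entry there. The stretches below are shown because H2-Aa, H2-Eb1, H2-DMb1 and H2-DMb2 hold letters of the layout that the RFX and NF-Y complex is known to read. Capitals mark AAC, letters found within X boxes, and ATTGG, the letters of the Y box, with 20 to 35 bases between. Each stretch has 8 further bases on either side. The letters searched were chosen after the sequences had been seen, so finding them here is not a test. All lie before the start that RefSeq gives and are written 5′ to 3′ on the strand of the gene.
H2-Aa, chr17:34287859-34287910, minus strand: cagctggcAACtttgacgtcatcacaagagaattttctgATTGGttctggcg
H2-Eb1, chr17:34305770-34305820, plus strand: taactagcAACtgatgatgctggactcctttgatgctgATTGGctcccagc
H2-DMb1, chr17:34153091-34153142, plus strand: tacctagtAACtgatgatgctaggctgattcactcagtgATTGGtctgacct
H2-DMb2, chr17:34145120-34145171, plus strand: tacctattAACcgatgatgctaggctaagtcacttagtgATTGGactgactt
H2-Oa, chr17:34092301-34092348, plus strand: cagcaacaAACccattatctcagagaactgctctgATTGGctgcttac
H2-Ob, chr17:34238812-34238860, plus strand: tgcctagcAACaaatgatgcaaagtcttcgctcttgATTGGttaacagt
ATTGG lay 48 to 90 bases before the start in the 4 genes of interest shown, and 24 to 28 bases separated the capitals printed for the 6 genes. H2-Eb1 and H2-Oa each hold 2 AAC in range of the same ATTGG, and the nearer is in capitals. Their printed spacing follows from that rule, and the AAC in capitals need not be that of the X box. The pair was found on the strand of the gene in 4.21% of 32851 promoters of the same length, and on either strand in 8.37%; ATTGG alone was on either strand in 37.4%. Neither H2-DMa promoter held the pair. The 2 last stretches belong to H2-Oa and H2-Ob, the chains of H2-DO, an inhibitor of H2-DM, which are compared below. By the gene starts in the files, which differ, the stretches of H2-DMb1 and H2-DMb2 lie within the gene, 19 and 1813 bases after its start, and that of H2-Oa crosses the start. A match is a string of letters in the window and not a measured binding site.

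H2-Aa, H2-Ab1 and H2-Eb1 encode the classical chains that present peptide: the alpha and beta chains of I-A and the beta chain of I-E. C57BL/6 mice make no I-E alpha chain, and the alpha gene is annotated as a pseudogene, H2-Ea-ps, which reached at most 0.0730 FPKM in any library. The classical genes were low in NRASG12D cells and well expressed in NUP98-NSD1 cells. In NRASG12D replicates 1 and 3 they rested on about 0.351 to 15.0 fragments, and in replicate 2 on about 62.3 to 164. In bulk RNA, fewer cells of a type and less RNA per cell cannot be told apart.

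H2-Aa (ENSMUSG00000036594.15) was 0.0129, 1.56 and 0.106 FPKM in NRASG12D replicates 1, 2 and 3. It was 36.2, 27.5 and 42.3 FPKM in NUP98-NSD1 and 37.2, 40.0 and 2.51 FPKM in NUP98-NSD1+NRASG12D. All 6 libraries with the fusion lay above all NRASG12D libraries, but the lowest of them, replicate 3 of the double-transduced cells, was within 2-fold of the highest NRASG12D library. NRASG12D replicates 1 and 3 lay below the level of 3 fragments (0.110 and 0.118 FPKM). H2-Aa rose by 4.66 ± 0.36 (log2 scale, SE) in NUP98-NSD1 over NRASG12D (adjusted p = 0.000286, n = 3 and 3, limma).

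H2-Ab1 (ENSMUSG00000073421.6) was 0.312, 3.81 and 0.550 FPKM in NRASG12D, 44.5, 31.0 and 58.9 in NUP98-NSD1 and 43.3, 55.8 and 7.42 in the double-transduced cells. H2-Eb1 (ENSMUSG00000060586.11) was 0.0627, 1.32 and 0.200 FPKM in NRASG12D, 19.2, 12.7 and 24.6 in NUP98-NSD1 and 19.1, 21.7 and 1.64 in the double-transduced cells. The same libraries were high and low for both as for H2-Aa. H2-Ab1 rose by 4.37 ± 0.49 (adjusted p = 0.00104, limma) and H2-Eb1 by 3.74 ± 0.34 (adjusted p = 0.000531, limma) in NUP98-NSD1 over NRASG12D. The 3 chains kept a steady proportion where they were well expressed: H2-Ab1 was 1.13 to 1.40 times H2-Aa, and H2-Eb1 0.463 to 0.582 times H2-Aa, in all NUP98-NSD1 libraries and in replicates 1 and 2 of NUP98-NSD1+NRASG12D.

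**Figure D1:**
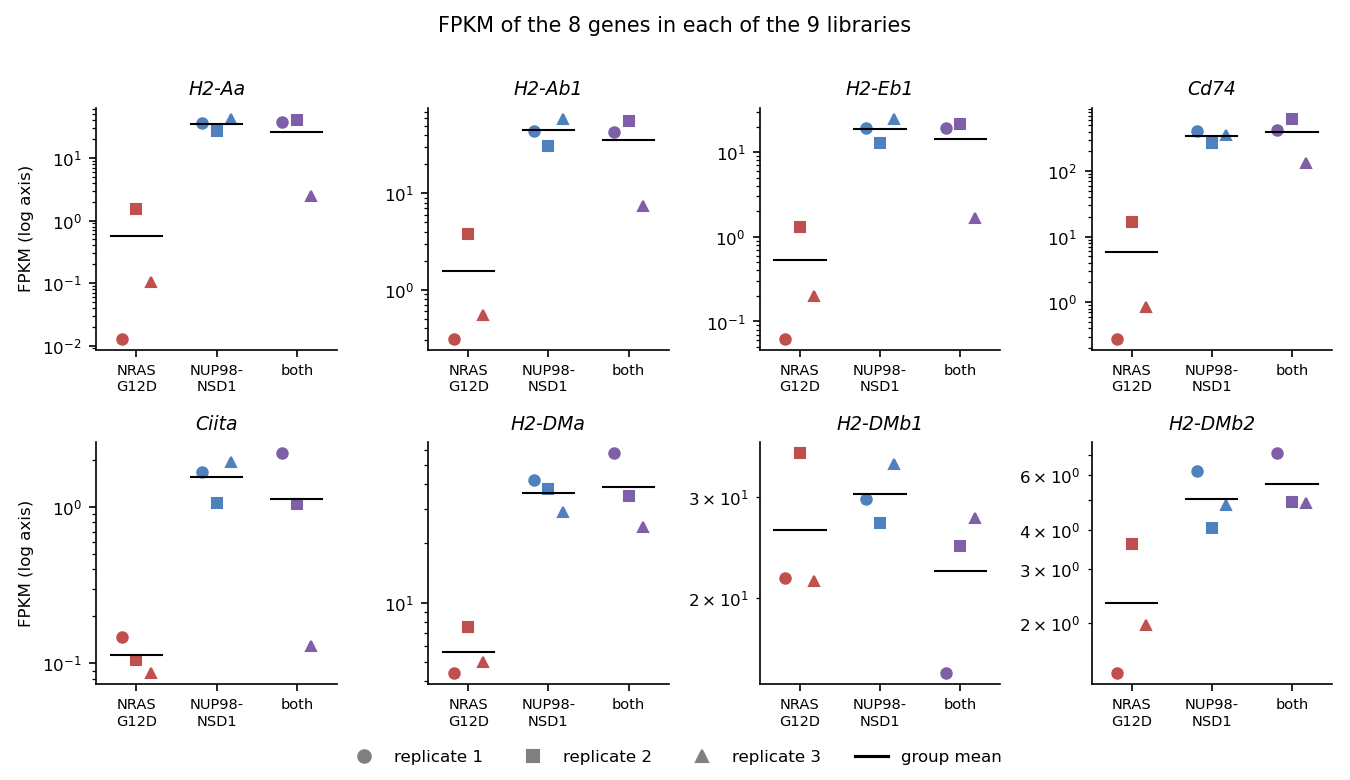
FPKM of each of the 8 genes (y axis, log scale, a range of its own in each panel) in the 9 libraries, grouped on the x axis by transduction; symbols give the replicate and the black line the group mean. For H2-Aa, H2-Ab1, H2-Eb1 and Cd74 the 3 NRASG12D libraries lie below all others, with replicate 2 the highest of them, and replicate 3 of the double-transduced group lies below its partners; H2-DMb1 runs from 14.9 to 35.7 FPKM with overlapping groups.

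Cd74 (ENSMUSG00000024610.15), the invariant chain, had the highest level of the 8 genes in both fusion groups and the largest difference from NRASG12D on the log2(FPKM + 1) scale. By the ratio of mean FPKM in NUP98-NSD1 over NRASG12D, H2-Aa (63.2) lay above Cd74 (58.2). It was 0.278, 16.6 and 0.831 FPKM in NRASG12D, 407, 264.6 and 361 in NUP98-NSD1 and 419, 627 and 132 in NUP98-NSD1+NRASG12D. No library of a fusion group came within 7-fold of the highest NRASG12D library. By FPKM it ranked 206, 376 and 209 among all identifiers in the NUP98-NSD1 libraries and 234, 111 and 914 in the double-transduced ones, against 15085, 5136 and 12425 in NRASG12D. Its rise in NUP98-NSD1 over NRASG12D was 6.62 ± 0.90 (adjusted p = 0.00181, limma). Cd74 made up 64.9 to 77.4% of the summed FPKM of the 8 genes in the libraries with the fusion, and 0.983, 23.7 and 2.76% in NRASG12D replicates 1, 2 and 3.

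Ciita (ENSMUSG00000022504.10, chr16:10480059-10528418, plus strand) encodes the coactivator of all the others. It was expressed at a low level throughout: 0.149, 0.105 and 0.0871 FPKM in NRASG12D, 1.70, 1.07 and 1.94 in NUP98-NSD1 and 2.23, 1.05 and 0.130 in NUP98-NSD1+NRASG12D. The NUP98-NSD1 libraries lay apart from NRASG12D, whereas replicate 3 of the double-transduced cells fell within the NRASG12D range. Ciita rose by 1.19 ± 0.16 in NUP98-NSD1 over NRASG12D (adjusted p = 0.00191, limma), a ratio of mean FPKM of 13.8. The call was lost under quantile normalization (adjusted p = 0.0610, limma).

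H2-DMa, H2-DMb1 and H2-DMb2 encode the alpha chain and the 2 beta chains of H2-DM, the peptide-exchange catalyst. They differed from each other more than the classical chains did. H2-DMa (ENSMUSG00000037649.10) was 4.40, 7.50 and 4.97 FPKM in NRASG12D, 42.3, 38.0 and 28.8 in NUP98-NSD1 and 57.7, 35.01 and 24.3 in the double-transduced cells. It was thus already expressed in NRASG12D cells, and its groups with the fusion lay well apart from them. It rose by 2.51 ± 0.21 in NUP98-NSD1 over NRASG12D (adjusted p = 0.000357, limma). H2-DMa overlaps Brd2 on the opposite strand, and 8.43% of its stretches of 50 bases are also in Brd2 transcripts; Brd2 was 73.0 to 138 FPKM in the 9 libraries, and how overlapping fragments were split is not given in the sources used here.

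H2-DMb1 (ENSMUSG00000079547.4) was 21.7, 35.7 and 21.5 FPKM in NRASG12D, 29.7, 26.97 and 34.1 in NUP98-NSD1 and 14.9, 24.6 and 27.5 in NUP98-NSD1+NRASG12D. The groups overlapped in every comparison. Its difference between NUP98-NSD1 and NRASG12D was 0.23 ± 0.20, with a 95% interval of -0.25 to 0.70 (adjusted p = 0.368, limma), and it turned to -0.067 and -0.077 under median-ratio scaling and quantile normalization. Without NRASG12D replicate 2 the difference was 0.46 and passed the test (adjusted p = 0.0269, limma). H2-DMb1 took 76.7, 50.8 and 71.1% of the summed FPKM of the 8 genes in NRASG12D replicates 1, 2 and 3.

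H2-DMb2 (ENSMUSG00000037548.15) was 1.38, 3.60 and 1.97 FPKM in NRASG12D, 6.21, 4.06 and 4.81 in NUP98-NSD1 and 7.08, 4.91 and 4.89 in the double-transduced cells. The groups did not overlap, but the gap between the highest NRASG12D library and the lowest NUP98-NSD1 library was under 0.5 FPKM. Its rise of 0.90 ± 0.26 in NUP98-NSD1 over NRASG12D (adjusted p = 0.0230, limma) was lost under no filter on low FPKM, median-ratio scaling and quantile normalization, and whenever NRASG12D replicate 1, NRASG12D replicate 3 or NUP98-NSD1 replicate 1 was left out (adjusted p = 0.0624, 0.0754 and 0.0778, limma). H2-DMb1 and H2-DMb2 are near copies: 22.7% of the 50-base stretches of H2-DMb1 are in H2-DMb2, so their split by the authors' quantification is uncertain. The ratio of H2-DMa to H2-DMb1 was 0.202 to 0.231 in NRASG12D libraries, 0.843 to 1.42 with the fusion alone and 0.881 to 3.88 in the double-transduced libraries.

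The first comparison asks how cells with the fusion differ from cells with mutant RAS alone. In NUP98-NSD1 over NRASG12D, 7 of the 8 genes were higher and none lower, where 42.2% of all tested genes were called higher and 52.1% in either direction. H2-DMb1 was the exception. The median difference of the 8 genes was 3.12, against 0.27 over all tested genes. In 7 of 8 genes the groups did not overlap, with NUP98-NSD1 above, which held for 50.7% of all tested genes. Of all calls 80.9% were higher, but 52.3% with median-ratio scaling and 43.2% with quantile normalization. Without NRASG12D replicate 2, all 8 genes passed the test, and the rises of Cd74 and H2-Aa were 7.79 ± 0.23 and 5.08 ± 0.19.

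The second comparison, NUP98-NSD1+NRASG12D over NRASG12D, sets cells with both genes against cells with NRASG12D alone. Here 6 of the 8 genes were higher and none lower, where 24.2% of all tested genes were called higher and 38.3% in either direction. Cd74 rose by 6.57 ± 1.04 (adjusted p = 0.00318, limma), H2-DMa by 2.54 ± 0.33 (adjusted p = 0.00148, limma) and H2-Ab1 by 3.69 ± 0.80 (adjusted p = 0.0119, limma). The call of H2-Ab1 was lost with no filter on low FPKM (adjusted p = 0.0810, limma). The rises of H2-Aa (3.64 ± 0.95, adjusted p = 0.0234), H2-Eb1 (2.89 ± 0.82, adjusted p = 0.0309) and H2-DMb2 (1.04 ± 0.28, adjusted p = 0.0265, limma) were less secure. Those 3 genes passed in 2, 1 and 2 of 6 fits with a library removed. Ciita (0.81 ± 0.36, 95% interval -0.04 to 1.67, adjusted p = 0.115, limma) and H2-DMb1 (-0.23 ± 0.29, 95% interval -0.92 to 0.46, adjusted p = 0.555, limma) did not pass. Without the low library, replicate 3 of the double-transduced cells, Ciita passed (1.21 ± 0.23, adjusted p = 0.0137, limma) and the rise of H2-Aa was 4.80 ± 0.43. H2-DMb2 lost its call in that fit (adjusted p = 0.0504, limma), so the count of genes that passed stayed at 6. Without NRASG12D replicate 2 alone, 5 genes passed, and H2-Eb1 lost its call (adjusted p = 0.0532, limma). With replicate 3 of the double-transduced cells and NRASG12D replicate 2 both left out, 6 genes passed, Cd74 at 8.39 ± 0.32 and H2-Aa at 5.22 ± 0.22. Ciita did not pass there (1.20 ± 0.29, adjusted p = 0.0521, limma). Both libraries were picked on these same values, so that fit gives no support to the rises. Of all calls 63.1% were higher, 53.1% with median-ratio scaling and 41.3% with quantile normalization. The median of the 8 genes was 2.71, against 0.23 over all tested genes, and 6 of 8 had groups that did not overlap, which held for 38.7% of all tested genes with the double-transduced cells above.

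The third comparison asks what NRASG12D adds to cells that carry the fusion. None of the 8 genes passed the test between NUP98-NSD1+NRASG12D and NUP98-NSD1 (limma), where 8.61% of all tested genes were called in either direction; 0 of 8 had an unadjusted p under 0.05, and 0 of 8 had groups that did not overlap (31.4% of all tested genes, either direction). Adjusted p-values ran from 0.324 to 0.978. The intervals were wide for the classical chains: H2-Aa differed by -1.02 (95% interval -3.17 to 1.13), H2-Ab1 by -0.68 (-2.34 to 0.98) and H2-Eb1 by -0.85 (-2.76 to 1.05). Cd74 differed by -0.05 (-1.36 to 1.26), and by 0.056 under median-ratio scaling. A 2-fold fall therefore lay within the interval of each of these 4 genes. The interval was narrower for H2-DMb2, 0.14 (-0.38 to 0.65). The median of the 8 was -0.42, against -0.06 over all tested genes. Without replicate 3 of NUP98-NSD1+NRASG12D, the differences of Cd74, H2-Aa, H2-Ab1, H2-Eb1 and Ciita were 0.60, 0.14, 0.18, 0.15 and 0.018, so the negative signs of these 5 genes rested on that library.

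**Figure D2:**
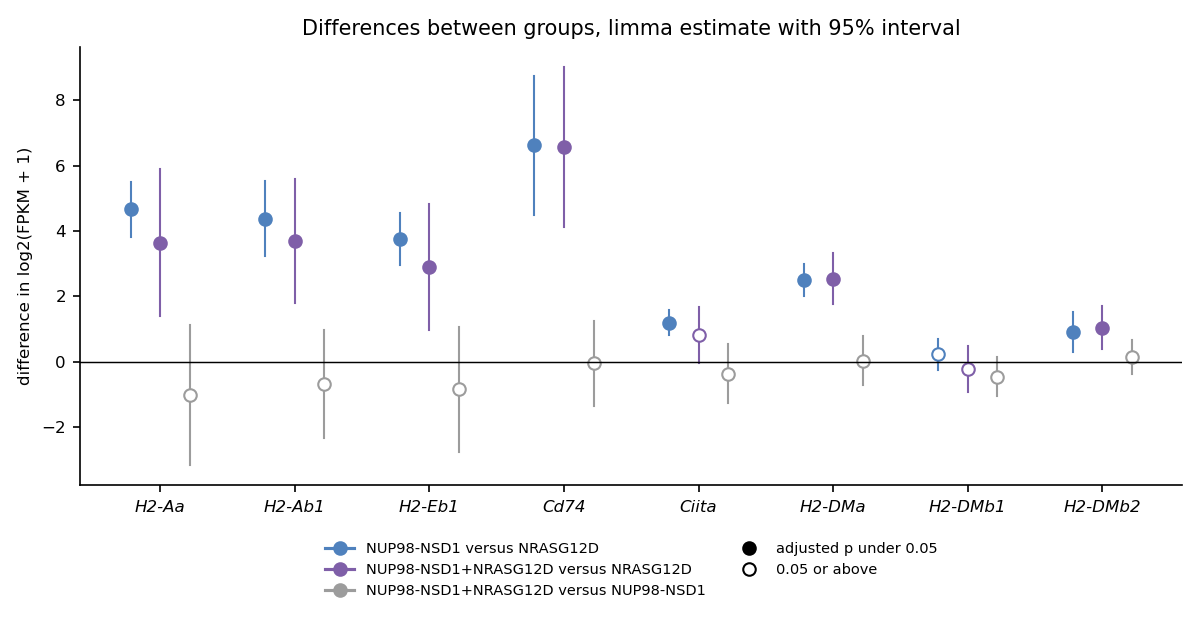
Difference in log2(FPKM + 1) between groups (y axis) for each of the 8 genes (x axis), with 95% intervals from limma; colours give the comparison, filled points an adjusted p under 0.05. Both comparisons with NRASG12D lie above 0 for every gene except H2-DMb1 in the double-transduced cells (-0.23), and no gene passes in the comparison of the 2 fusion groups.

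The classical chains and Cd74 stood apart in NRASG12D replicate 2 and in NUP98-NSD1+NRASG12D replicate 3, and Ciita in the double-transduced one alone. NRASG12D replicate 2 reached 4.41% of the NUP98-NSD1 mean for H2-Aa, 8.51% for H2-Ab1, 6.98% for H2-Eb1 and 4.83% for Cd74, where the other NRASG12D libraries lay between 0.0366 and 1.23% for these genes. Ciita did not follow: it was 0.105 FPKM there, 89.5% of the mean of the other 2. Markers of other cells were uneven in that library: 7 of 8 monocyte and macrophage markers, 5 of 8 neutrophil granule markers and 5 of 8 mast cell markers lay above both partners, and 1, 1 and 2 of them below both. These counts take any margin, and the share of all tested genes beyond both partners by any margin was not worked out. The macrophage receptor gene Csf1r was 1.28 FPKM in NRASG12D replicate 2 against 0.0222 and 0.0913 in replicates 1 and 3, and the protease gene Ctss 4.21 against 0.791 and 1.20. The granule gene Mpo was 3.53 FPKM against 0 and 0.218. The macrophage gene Adgre1 ran the other way, at 15.7 FPKM against 18.3 and 18.8, as did the mast cell protease gene Mcpt4, at 33.2 against 100.8 and 91.1. Of all tested genes, 123 (0.912%) were over 2-fold above both partners in that library, against 28 and 23 in replicates 1 and 3. The part of these genes in the class II values was not tested.

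Replicate 3 of NUP98-NSD1+NRASG12D held 6.51% of the mean of its 2 partners for H2-Aa, 15.0% for H2-Ab1, 8.06% for H2-Eb1, 25.3% for Cd74 and 7.93% for Ciita. H2-DMa (52.4%), H2-DMb2 (81.5%) and H2-DMb1 (139.5%) were less affected. Cd74 was lowered less than the classical chains: the ratio of Cd74 to H2-Aa was 52.6 there, against 8.53 to 15.7 in the 6 other libraries where H2-Aa reached 3 fragments. Against both partners, by any margin, 6 of 9 dendritic cell markers and 7 of 8 mast cell markers were lower in that library and none of either higher. Of those dendritic cell markers, Zbtb46, Xcr1 and Siglech stayed at or below 0.198 FPKM in every library, so their order carries little weight. Of 8 monocyte and macrophage markers 2 were lower and 1 higher, and of 8 neutrophil granule markers 1 was lower (Mpo) and 2 higher (S100a8 and S100a9). The share of all tested genes beyond both partners by any margin was not worked out. Over 2-fold, 180 (1.33%) of all tested genes lay above both partners and 267 (1.98%) below. Replicate 1 had 330 above and 388 below, and replicate 2 had 476 and 52. Csf1r was 60.8 FPKM against 66.8 and 158 in replicates 1 and 2, and Ctss 383 against 363 and 1630. Among the dendritic cell markers, Flt3 was 0.0238 FPKM in replicate 3 against 10.2 and 0.525, whereas Itgax was 2.61 against 0.848 and 5.49. The RFX subunit gene Rfx5 was 4.60 FPKM against 8.40 and 8.16. The part of these genes in the class II values was not tested.

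**Figure D3:**
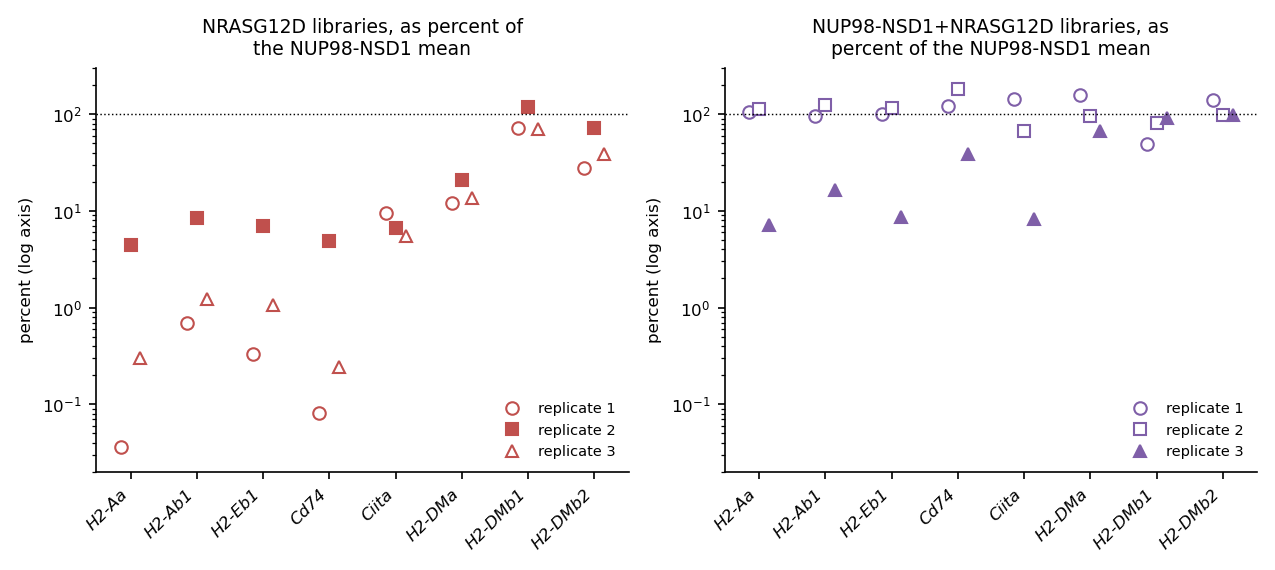
Level of each gene as a percent of its NUP98-NSD1 mean (y axis, log scale) in the NRASG12D libraries (left) and the NUP98-NSD1+NRASG12D libraries (right); filled symbols mark NRASG12D replicate 2 and double-transduced replicate 3, and the dotted line is 100%. NRASG12D replicate 2 lies above its partners for the classical chains and Cd74 but not for Ciita, and double-transduced replicate 3 lies at 7.11 to 38.4% for the classical chains, Cd74 and Ciita.

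The 6 genes other than Cd74 and Ciita lie in the class II region of chromosome 17, from 34119541 (start of H2-DMa) to 34316674 (end of H2-Eb1) in the coordinates of the files (GRCm38). The region starts at H2-Oa and runs through H2-DMa, H2-DMb2 and H2-DMb1 to the class I loading genes Psmb9, Tap1, Psmb8 and Tap2, and on to H2-Ob, H2-Ab1, H2-Aa, H2-Eb1 and H2-Eb2. The genes did not move as 1 block. H2-Oa, at one end, was 5.52, 4.02 and 7.40 FPKM in NRASG12D and 9.60, 10.9 and 4.60 in NUP98-NSD1 (0.45 ± 0.31, adjusted p = 0.256, limma). H2-Ob, which lies about 3 kb from H2-Ab1, was 2.27, 4.36 and 1.41 FPKM in NRASG12D and 3.27, 2.48 and 2.08 in NUP98-NSD1 (0.04 ± 0.29, adjusted p = 0.915, limma). H2-Ob had overlapping groups next to a gene that differed by 4.37. Both promoters of the H2-DO chains hold the letters printed above, and H2-Ab1 has no promoter entry here. The part of position or of these letters in the differences was not tested. In the double-transduced cells H2-Ob was 1.43, 0.755 and 1.00 FPKM, below all NUP98-NSD1 libraries, but the difference of -0.81 ± 0.21 did not pass (adjusted p = 0.0579, limma). H2-Eb2 was at most 0.0368 FPKM and H2-Ea-ps also lay under the filter, so 2 of the 4 other class II genes were tested and none was called in any comparison.

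The list counts that follow are to be read against all tested genes, of which 42.2% were higher and 9.98% lower in NUP98-NSD1 than in NRASG12D, 24.2% higher and 14.1% lower in NUP98-NSD1+NRASG12D than in NRASG12D, and 8.61% called in either direction between the fusion groups. The class I genes within the region differed less than the classical class II genes. Psmb9 and Psmb8, subunits of the immunoproteasome, rose by 1.41 ± 0.22 and 1.07 ± 0.15 in NUP98-NSD1 over NRASG12D (adjusted p = 0.00293 and 0.00187, limma). Tap1, a subunit of the peptide transporter, rose by 0.72 ± 0.13 (adjusted p = 0.00420, limma), and its partner Tap2 differed by -0.08 ± 0.14 (adjusted p = 0.626, limma). Of 9 genes of the class I pathway, 6 were higher in NUP98-NSD1 than in NRASG12D (median 0.52), 4 in NUP98-NSD1+NRASG12D (median 1.06), and none was called between the fusion groups (median 0.54). The largest rise was that of Nlrc5, the class I counterpart of Ciita: 0.114, 0.224 and 0.158 FPKM in NRASG12D, 2.24, 2.28 and 2.24 in NUP98-NSD1, and 2.69, 7.66 and 4.49 in the double-transduced cells. Unlike Ciita, Nlrc5 was not low in replicate 3 of the double-transduced cells.

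**Figure D4:**
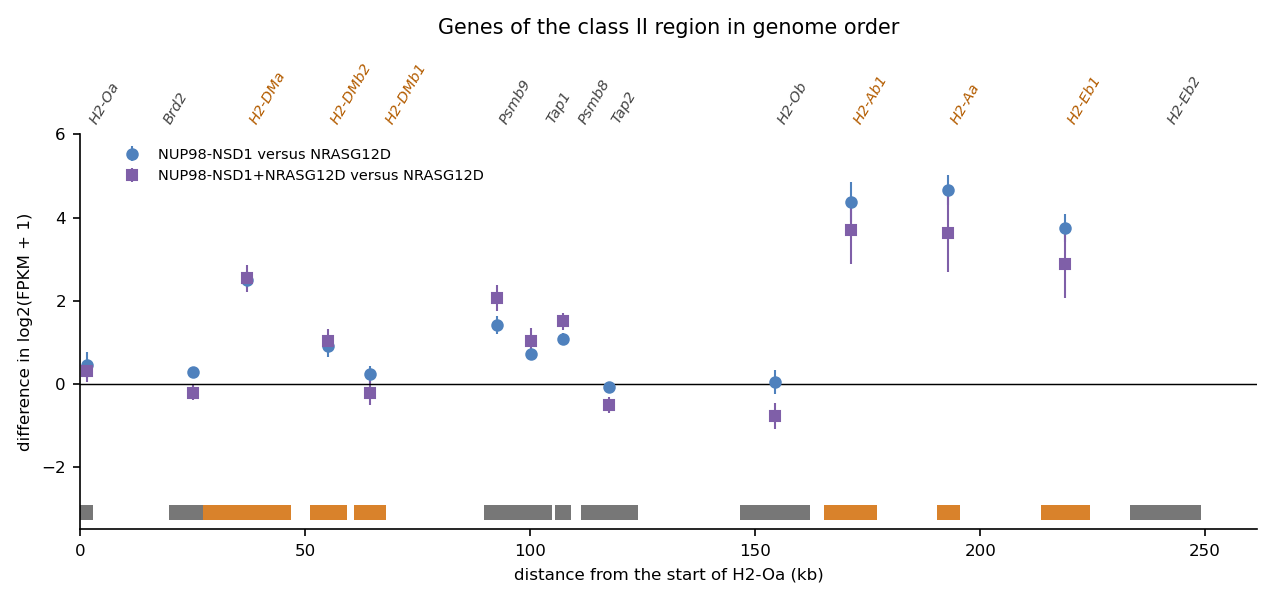
Difference in log2(FPKM + 1) from NRASG12D (y axis, bars are SE) of the genes of the class II region, placed by distance from the start of H2-Oa in kb (x axis); bars at the foot show the genes, with the genes of interest in orange. H2-Ab1, H2-Aa and H2-Eb1 lie above 2.8 in both comparisons while their neighbour H2-Ob lies near or below 0; H2-Eb2 was not tested and has no point.

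The genes of the DNA-binding complex on which CIITA docks differed by less than 1 on the log2 scale. Of 7 genes of the RFX, CREB and NF-Y complex, 3 were higher in NUP98-NSD1 than in NRASG12D (median 0.31), a share close to the 42.2% of all tested genes, and 2 in NUP98-NSD1+NRASG12D (median 0.51, 24.2% of all tested genes), where 1 was lower. Those that rose were Nfyb (0.57 ± 0.11 and 0.63 ± 0.21), Creb1 (0.52 ± 0.12 and 0.59 ± 0.18) and, in NUP98-NSD1, Nfyc (0.48 ± 0.12); Nfyc in the double-transduced cells was 0.51 ± 0.17 above NRASG12D (adjusted p = 0.052, limma). Rfx5, the DNA-contacting subunit of RFX, was 13.4, 12.8 and 16.7 FPKM in NRASG12D, 13.1, 11.995 and 10.6 in NUP98-NSD1 and 8.40, 8.16 and 4.60 in NUP98-NSD1+NRASG12D. It was lower in the double-transduced cells than in NRASG12D by the test (-0.96 ± 0.24, adjusted p = 0.0211, limma), the reverse of the classical chains. None of the 7 was called between the fusion groups (median 0.06).

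Among 7 genes known to act on Ciita, 5 were tested, with 2 higher and 1 lower in NUP98-NSD1 than in NRASG12D (median 0.38), 4 higher and 1 lower in NUP98-NSD1+NRASG12D (median 0.94), and 1 lower between the fusion groups (median 0.42). Spi1, which encodes PU.1, a factor of the myeloid promoter of Ciita, was 76.4, 81.3 and 72.6 FPKM in NRASG12D, 192, 157 and 108 in NUP98-NSD1 and 269, 235 and 274 in NUP98-NSD1+NRASG12D. Socs1, an inhibitor of interferon signalling, ran the other way: 116, 101 and 112 FPKM in NRASG12D, 72.9, 69.4 and 71.6 in NUP98-NSD1 and 9.80, 30.8 and 13.2 in NUP98-NSD1+NRASG12D. Its fall was 0.61 in the first comparison (adjusted p = 0.00167), 2.703 in the second (adjusted p = 0.00189) and 2.09 in the third (adjusted p = 0.0224, limma). Usf1 rose by 0.52 ± 0.14 and 0.94 ± 0.24 over NRASG12D, and Irf1 by 0.53 ± 0.17 in NUP98-NSD1+NRASG12D over NRASG12D.

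Interferon gamma is the classical inducer of Ciita. Its own gene, Ifng, was at most 0.0804 FPKM in any library. Of 7 genes of its pathway 6 were tested, and 2 were higher in NUP98-NSD1 (median 0.31) and 4 in NUP98-NSD1+NRASG12D (median 0.95) than in NRASG12D, with none called between the fusion groups (median 0.64). The receptor chains led the list. Ifngr1 was 15.5, 18.2 and 15.1 FPKM in NRASG12D, 83.8, 78.2 and 41.7 in NUP98-NSD1 and 196, 114 and 141 in the double-transduced cells. Ifngr2 rose by 2.79 ± 0.32 and 4.12 ± 0.22 over NRASG12D.

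The 9 genes listed for antigen processing act on antigen and Cd74 in the endosome or on class II at the surface. Of them, 6 were higher and 2 lower in NUP98-NSD1 than in NRASG12D (median 0.70), where 42.2% of all tested genes were higher, and 5 were higher and 1 lower in NUP98-NSD1+NRASG12D (median 2.698), where 24.2% were higher. Ctss, the protease that trims Cd74, was 0.791, 4.21 and 1.20 FPKM in NRASG12D, 138, 137 and 168 in NUP98-NSD1 and 363, 1630 and 383 in NUP98-NSD1+NRASG12D. Its differences from NRASG12D were 5.76 ± 0.37 and 7.80 ± 0.66. Ctsl, a related protease, rose by 5.29 ± 0.26 and 7.76 ± 0.65, and Lgmn, the asparaginyl endopeptidase, by 3.50 ± 0.30 and 5.82 ± 0.83. March1, the ubiquitin ligase that removes class II from the surface, rose by 2.28 ± 0.19 and 3.51 ± 0.27. Ifi30, the endosomal thiol reductase, rose by 0.56 ± 0.16 in NUP98-NSD1 (adjusted p = 0.0226, limma) and did not pass in the double-transduced cells (0.65 ± 0.26, adjusted p = 0.0872, limma). March8, a related ligase, fell by 0.39 and 1.26, and Ctsd by 0.67 in NUP98-NSD1 over NRASG12D. Sppl2a, the membrane protease that clears the stub of Cd74, differed by -0.019 in NUP98-NSD1 over NRASG12D (adjusted p = 0.914, limma). None of the 9 was called between the fusion groups (median 1.24).

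**Figure D5:**
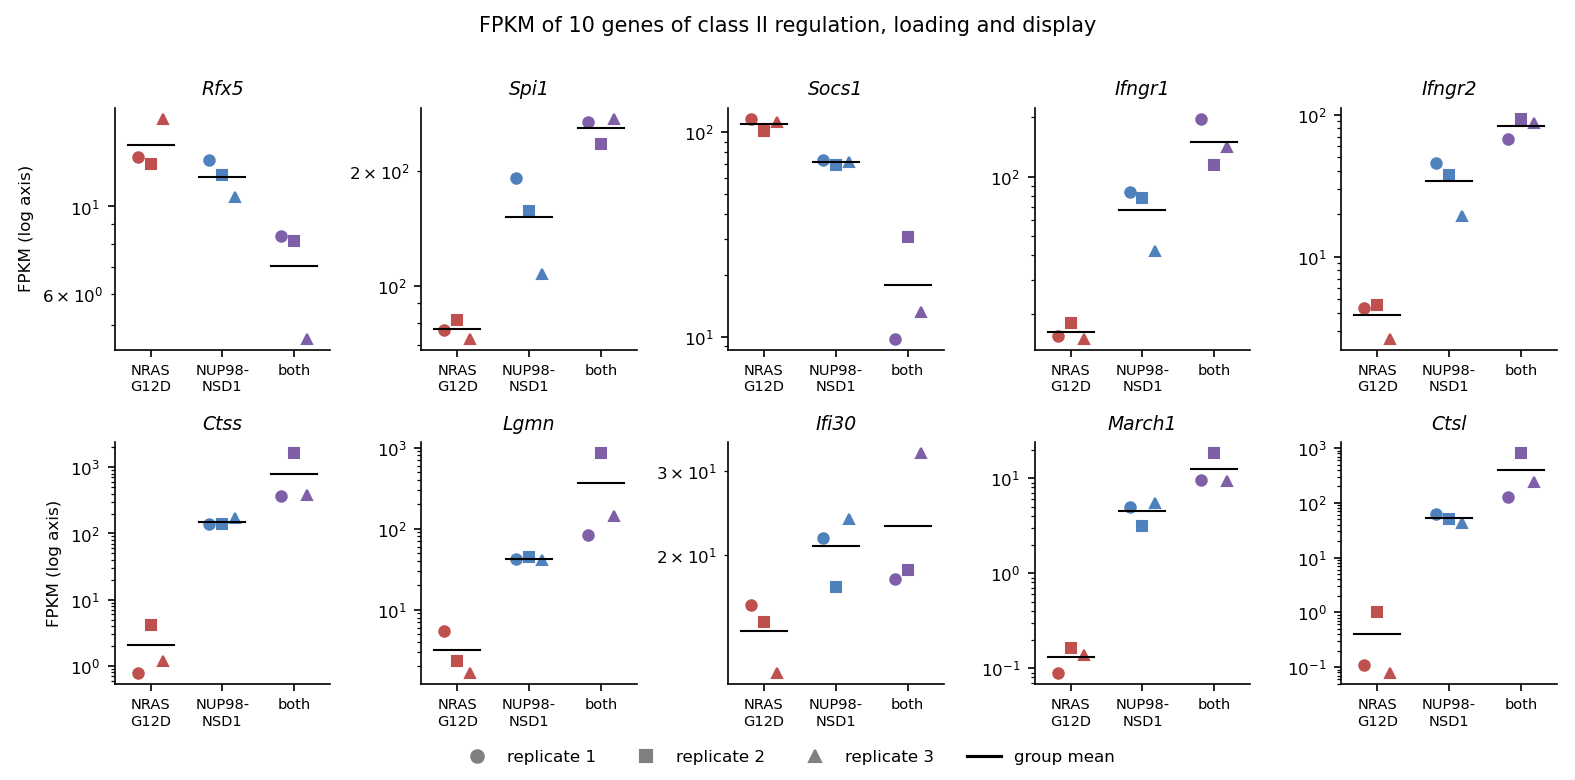
FPKM (y axis, log scale) of 10 genes of class II regulation, antigen processing and surface turnover in the 9 libraries, grouped by transduction; symbols give the replicate and the black line the group mean. Ctss, Ctsl, Lgmn, March1, Ifngr1 and Ifngr2 step up from NRASG12D to NUP98-NSD1 and lie higher again in the double-transduced libraries, whereas Rfx5 and Socs1 are lowest in the double-transduced libraries.

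Co-stimulatory molecules give the T cell its second signal. Of 6 such genes 4 were tested, and 2 were higher in each comparison with NRASG12D (medians 0.51 and 0.82), with none called between the fusion groups (median 0.52). Cd86 was 0, 0.221 and 0.121 FPKM in NRASG12D, 4.88, 2.33 and 3.52 in NUP98-NSD1 and 10.4, 12.2 and 5.63 in NUP98-NSD1+NRASG12D. Cd40 rose by 0.94 ± 0.14 and 0.89 ± 0.29.

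Markers of several cell types also differed between the groups, in directions that varied by cell type. All 8 monocyte and macrophage markers were higher in both comparisons with NRASG12D, and their summed FPKM was 39.9 to 52.4 in the NRASG12D libraries, 189 to 252.5 with the fusion alone and 331 to 1895 with both. All 8 neutrophil granule markers were also higher in both, at 26.6 to 34.0, 1650 to 5819 and 7126 to 17230 FPKM in sum. Between the fusion groups, 1 monocyte and macrophage marker (Cd14) and 3 neutrophil markers (Camp, S100a8 and S100a9) were higher. The 7 mast cell markers other than Cpa3 summed to 29618 to 32115 FPKM in the NRASG12D libraries, 13361 to 16976 with the fusion alone and 452 to 2443 with both. Cpa3 was listed at 0 in all 3 NRASG12D libraries, which can be a failed estimate, and was 12564 to 14379 FPKM with the fusion alone and 279.6 to 1821 with both. Of all 8 mast cell markers, Cpa3 included, 3 were higher and 4 lower in NUP98-NSD1 than in NRASG12D, 2 higher and 6 lower in NUP98-NSD1+NRASG12D, and 7 lower between the fusion groups. The NUP98-NSD1 libraries therefore held high levels of class II, macrophage, neutrophil and mast cell transcripts together.

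The markers that define dendritic and B cells were low, several of them at or near 0 in every library. Of 9 dendritic cell markers 3 passed the filter, and their summed FPKM was 0.898 to 1.11 in the NRASG12D libraries, 5.36 to 9.68 with the fusion alone and 4.26 to 14.9 with both. Batf3 and Flt3 were higher in NUP98-NSD1 than in NRASG12D, and Batf3 in NUP98-NSD1+NRASG12D. Xcr1, Zbtb46, Cd209a and Siglech stayed at or below 0.198 FPKM in every library. Of 6 B cell markers 1 passed the filter, Cd79b, which was higher in NUP98-NSD1 than in NRASG12D (1.76 ± 0.39); their summed FPKM was 0.258 to 0.555, 1.20 to 5.67 and 0.231 to 9.22 in the 3 groups, while Ms4a1 stayed at or below 0.0408 FPKM. The part of any of these cell types in the class II differences was not tested.

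Ordered by mean level, Cd74 came first in both fusion groups (344 ± 72.7 FPKM in NUP98-NSD1 and 393 ± 248 in NUP98-NSD1+NRASG12D, SD, n = 3). In NUP98-NSD1, H2-Ab1 (44.8 ± 13.9), H2-DMa (36.3 ± 6.91), H2-Aa (35.3 ± 7.45) and H2-DMb1 (30.3 ± 3.61) followed as neighbours whose ranges overlapped, then H2-Eb1 (18.8 ± 5.94), H2-DMb2 (5.02 ± 1.09) and Ciita (1.57 ± 0.449), each below the whole range of the gene before it. The double-transduced order was Cd74, H2-DMa (39.0 ± 17.05), H2-Ab1 (35.5 ± 25.1), H2-Aa (26.6 ± 20.9), H2-DMb1 (22.3 ± 6.63), H2-Eb1 (14.1 ± 10.9), H2-DMb2 (5.62 ± 1.26) and Ciita (1.14 ± 1.05), with replicate 3 widening the spread of 5 genes. In NRASG12D the order was H2-DMb1 (26.3 ± 8.14), Cd74 (5.92 ± 9.29), H2-DMa (5.62 ± 1.65), H2-DMb2 (2.32 ± 1.15), H2-Ab1 (1.56 ± 1.96), H2-Aa (0.559 ± 0.867), H2-Eb1 (0.526 ± 0.687) and Ciita (0.114 ± 0.0316). The range of H2-DMb1 lay above that of Cd74, the next in order; the means of Cd74, H2-Ab1, H2-Aa and H2-Eb1 there rested on replicate 2.

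The genes whose levels were most like those of Cd74, Ciita and H2-Aa over the 9 libraries were ranked by Pearson r of log2(FPKM + 1), as a description. The libraries share 3 groups, so a high r here mostly restates the group pattern. For Cd74 these were Gm15190 (0.97), Cenpe (0.97), Pald1 (0.97), Pif1 (0.97) and Wfdc17 (0.96). For Ciita, which was low in replicate 3 of the double-transduced cells, they were Gpr15 (0.97), Cdc27 (0.95), Pold3 (0.95), Cad (0.95) and Kif18b (0.95). For H2-Aa they were Ppp4r1 (0.98), Tnfsf9 (0.98), Ipo13 (0.97), Hcfc1 (0.97) and Tarm1 (0.97).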

How the data were processed

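RNA of 9 libraries was sequenced as paired-end 50 bp reads. The deposited values are FPKM, made by the authors; the submitters' processing notes name STAR 2.7.2a, Cufflinks 2.2.1 and GRCm38.p6, and the methods name GENCODE M22. No counts were used, so expression was tested with limma 3.58.1 in R 4.3.3 (eBayes with trend) on log2(FPKM + 1), for each pair of groups by itself, over the 13493 genes that reached 1 FPKM in 3 or more of 9 libraries, with Benjamini-Hochberg adjustment and a threshold of 0.05. Samples were grouped by the sample type in the labels. Depth was estimated from the steps of low FPKM values in 3386 genes: 84.5 to 87.2% lay within 0.15 of a whole step. It gave the fragments behind each value, which cover counting error only.

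The 8 genes, the gene lists and the tests were chosen with earlier results of these data known. All 8 genes were named, list genes by the 2 largest rises and falls past the threshold, and genes of the class II machinery whatever their change; examples of markers and of libraries that stood apart were chosen after their values were seen. On simulated data for NUP98-NSD1 versus NRASG12D (13493 genes), 14% of genes changed by a log2 of 1, 96% of 2 and 100% of 3 were found. The simulation gave every gene the same fixed spread, which was not fitted to these libraries. Alternatives were another pseudocount (0.1), no filter, median-ratio scaling, quantile normalization, array weights, a single fit of all libraries, a replicate block and leaving out each library; leaving out 2 libraries was added after seeing the data. Single values of some list genes are not reported here; the counts, medians and sums cover the whole lists.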

Additional observations from a re-analysis of the deposited data

How the results depend on the processing

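The number of the 8 genes called in NUP98-NSD1 over NRASG12D was 7, and 5 to 8 under the alternatives, with 6 to 8 when 1 library was left out. In NUP98-NSD1+NRASG12D over NRASG12D it was 6, but 2 with no filter on low FPKM (more genes tested), 3 with array weights and 3 to 6 when 1 library was left out: 3 without NRASG12D replicate 1, without NRASG12D replicate 3 or without NUP98-NSD1+NRASG12D replicate 1. Between the fusion groups it was 0 in every fit run, and 0 to 0 when 1 library was left out. The cause of these shifts was not tested except where named.

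Over all tested genes, the first comparison gave 7036 calls, 3065 in a single fit of all 9 libraries and 4736 to 7948 when 1 library was left out. The second gave 5173, 2329 without NRASG12D replicate 2 and NUP98-NSD1+NRASG12D replicate 3 together, and 2941 to 6327 when 1 library was left out. The third gave 1162, 169 with no filter, 3500 with array weights, 2251 in a single fit and 283 to 2509 when 1 library was left out. Scaling moved the balance of calls: higher genes were 80.9% of calls in the first comparison, 52.3% with median-ratio scaling and 43.2% with quantile normalization, 63.1% against 53.1% and 41.3% in the second, and 26.8% against 33.1% and 36.7% in the third. The median difference of all tested genes in the first comparison was 0.27, 0.012 with median-ratio scaling and -0.068 with quantile normalization.

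No called gene reversed. H2-DMb1 turned to -0.067 (median-ratio) and -0.077 (quantile) in the first comparison; in the second it ran from -0.40 to 0.026 with 1 library left out and was 0.0030 without NRASG12D replicate 2 and 0.026 without NUP98-NSD1+NRASG12D replicate 1. Between the fusion groups Cd74 turned to 0.056 (median-ratio) and H2-DMa to -0.40 (array weights). With 1 library left out, Cd74 ran from -0.52 to 0.60 (0.080 without NUP98-NSD1 replicate 1), H2-Aa from -1.63 to 0.14, H2-Ab1 from -1.20 to 0.18, H2-Eb1 from -1.40 to 0.15, Ciita from -0.74 to 0.018, H2-DMa from -0.29 to 0.32 (-0.13 without NUP98-NSD1 replicate 3) and H2-DMb2 from -0.015 to 0.27. The positive ends of Cd74, H2-Aa, H2-Ab1, H2-Eb1 and Ciita were all reached without NUP98-NSD1+NRASG12D replicate 3.

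Replicate numbers did not pair the samples: correlations of deviations of same-numbered libraries ran from -0.18 to 0.16. With the replicate block, 6, 6 and 0 of the 8 genes and 6864, 4531 and 801 genes overall were called in the 3 comparisons. H2-DMb2 lost its call in the first under the block (adjusted p = 0.0538, limma). Of 9 libraries compared, 1 correlated best with its own number.

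The limits are those of depth and design. NRASG12D libraries held about 0.351 to 62.3 fragments of H2-Aa, and values under 3 fragments are counts near the detection limit. With 3 libraries a group, log2 changes of 1 were mostly missed on simulated data, whose fixed spread was not fitted to these libraries. The real fits called smaller differences, such as Brd2 at 0.28 in NUP98-NSD1 over NRASG12D (adjusted p = 0.0321, limma). The simulated share therefore does not give the power of these comparisons.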

Other observations

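Markers of other lineages outside the comparisons above were also read. The 3 eosinophil and basophil markers (Prg2, Epx and Mcpt8) were all higher in NUP98-NSD1 than in NRASG12D, with a summed FPKM of 16.3 to 52.0 in the NRASG12D libraries, 590 to 1017 with the fusion alone and 20.8 to 542 with both. In the double-transduced cells 1 of the 3, Prg2, was higher than in NRASG12D (a log2 difference of 4.76, adjusted p = 0.0238, limma). The lowest sum of that group was in replicate 3, the library with the lowest class II levels of its group. None of 5 T cell markers passed the filter, and their summed FPKM was at most 0.297 in any library.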
